A study of Mus musculus with 12 samples.

Results

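A group of 9 genes that mark bile duct cells or hepatic progenitors was followed, out of 26301 genes counted. The tissues were livers of wild-type mice and liver tumors without the atypical E2Fs. The members were Krt7, Krt19, Epcam, Sox9, Prom1, Spp1, Cd24a, Slc34a2 and Tspan15. Prom1 and Slc34a2 were chosen by their higher counts in DKO tumors than in control livers, and Tspan15 was chosen by its higher counts in TKO tumors than in controls. The fold changes of these 3 genes are therefore given as a description, with no test in any comparison, since all 3 comparisons share a group with the one that chose them. The other 6 members were listed as known duct or progenitor genes. Earlier results of these data were known when they were listed, so their tests may not be free of that choice.

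RNA-seq had been performed on 12 mouse tissue samples, 4 per group, to compare the tumors that arise with and without the retinoblastoma gene when E2f7 and E2f8 are deleted. Controls were non-tumor livers of wild-type mice matched for age. DKO samples were spontaneous liver tumors of Alb-Cre mice lacking E2f7 and E2f8, and TKO samples were spontaneous liver tumors of Alb-Cre mice lacking E2f7, E2f8 and Rb1. Alb-Cre places the recombinase under the albumin promoter, which is active in hepatocytes and in the cells they arise from, so stroma and blood cells keep the genes. All mice were ageing adults, bred towards the FVB strain. The authors report that mice were found dead or were killed when moribund, and that control littermates were analysed at the same time point. Tumor and control tissue thus differed in genotype and in being a tumor, and these cannot be told apart here. Each library was one liver or tumor, and beyond that the labels do not say how the samples relate, so a p-value measures the spread between these tissue pieces. Because the tissue was sequenced in bulk, fewer cells of a type and less RNA per cell cannot be told apart.

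Cholangiocytes, the epithelial cells that line the bile ducts, are a small share of the liver. They arise from hepatoblasts under Notch and TGF-beta signals, carry the keratins Krt7 and Krt19 and the adhesion molecule Epcam, and depend on the transcription factor Sox9. After injury, cells with both hepatocyte and duct features appear around the portal tracts, and Prom1 (CD133), Cd24a, Sox9, Spp1 and Epcam are used to find them. Prom1 is a membrane glycoprotein of cell protrusions. Slc34a2 is a sodium-dependent phosphate cotransporter of the apical membrane, best known from lung alveoli and gut. Tspan15 is a tetraspanin that binds the protease ADAM10 and directs it to its substrates.

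Total counts per library ranged from 9165812 to 16424973, and 13882 genes had enough counts to be tested. A level below is in CPM, the count scaled to the library's total after TMM normalisation, and a call is an adjusted p under 0.05 in edgeR's quasi-likelihood test with Benjamini-Hochberg adjustment over all 13882 genes. Rb1 was at 3.21 to 5.47 CPM in the TKO libraries, below the 6.52 to 10.7 CPM of the controls. E2f7 had 4 to 24 counts in any library. E2f8 was higher in tumors (99 to 577 counts in DKO and 165 to 681 in TKO) than in controls (61 to 88 counts), and a count over the whole gene does not check a deletion of some exons. Libraries are named by their labels throughout.

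The 12 libraries also fell into 2 sets that crossed the genotypes, and 3 of the members moved with them. Krt20, a keratin of gut and urothelium, had 159 to 312 counts in 8 libraries, which were control 1, control 3, all 4 DKO tumors, TKO 1 and TKO 4. It had 1 count each in control 2 and control 4 and 0 counts in TKO 2 and TKO 3. Gp2, a membrane glycoprotein known from pancreas and gut epithelium and named here after its values were seen, had 265 to 478 counts in the same 8 libraries and 0 or 1 in the other 4. The number of Krt20 counts per Gp2 count stayed between 0.550 and 0.653 over the 8 libraries. Spib, an Ets transcription factor of lymphoid and gut cells that was also chosen after its values were seen, had 323 to 472 counts in those 8 libraries, and 5, 15, 12 and 15 counts in control 2, control 4, TKO 2 and TKO 3. In the opposite direction, the growth factor gene Igf2 had 286, 791, 644 and 333 counts in those 4 libraries and 5 to 74 in the others. The gut marker list (Vil1, Cdx2, Lgals4, Fabp2, Muc2) summed to 20.8 to 122 CPM in the 8 libraries and 40.1 to 72.9 in the other 4, and most of its counts were of Fabp2 alone. The pancreas list (Cpa1, Ctrb1, Cela1, Pnlip, Prss2) summed to 11.8 to 67.9 and 23.5 to 62.2 CPM, nearly all of it Cela1, and its other 4 genes had 0 to 3 counts. Whether the reads of Gp2, Krt20 and Spib, and with them part of the reads of Krt19, Epcam and Cd24a, came from the labelled tissue was not tested. The levels of these 3 members are therefore levels in the libraries and may not be levels in the liver or tumor. Their fold changes are given below with and without the split, in fits added after seeing the data.

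**Figure D1:**
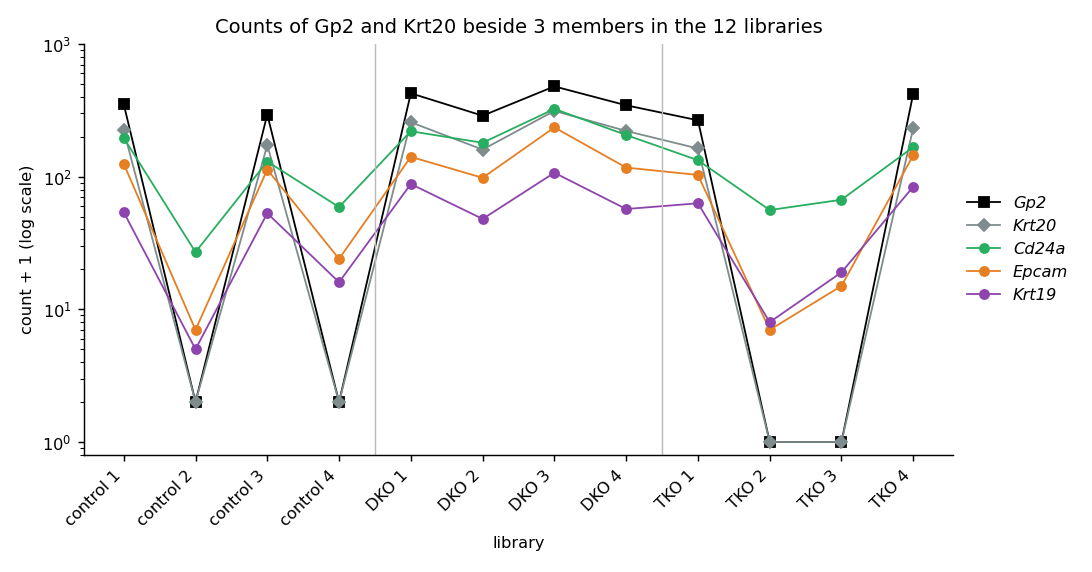
Counts plus 1, on a log axis, of Gp2, Krt20, Cd24a, Epcam and Krt19 in each of the 12 libraries, with vertical lines between the control, DKO and TKO groups. Control 2, control 4, TKO 2 and TKO 3 had 0 or 1 count of Gp2 and of Krt20 and the fewest counts of the 3 members, while all 4 DKO libraries were in the high set.

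Epcam, the epithelial cell adhesion molecule, followed this split more closely than it followed genotype. Its counts were 124, 6, 112 and 23 in controls 1 to 4, 140, 97, 234 and 116 in the DKO tumors, and 102, 6, 14 and 144 in the TKO tumors. The 4 lowest libraries were the same 2 controls and 2 TKO tumors that had hardly any Gp2, and the groups overlapped. In the other 8 libraries there were between 0.330 and 0.385 Epcam counts per Gp2 count in 7, and 0.490 in DKO 3. Mean levels were 4.80 CPM ± 4.22 (SD, n = 4) in controls, 9.77 ± 3.19 in DKO and 4.60 ± 4.83 in TKO tumors. The log2 fold change was 1.00 ± 0.84 (SE) in DKO against control (edgeR adjusted p = 0.498), -0.08 ± 0.84 in TKO against control (adjusted p = 0.977) and -1.08 ± 0.84 in TKO against DKO (adjusted p = 0.718). With the Gp2 level as a covariate the DKO value fell to 0.03 ± 0.35, with a 95% interval from -0.73 to 0.80.

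Krt19, the keratin of bile duct epithelium, showed the same set of low libraries. It had 53, 4, 52 and 15 counts in controls, 87, 47, 106 and 56 in DKO tumors and 62, 7, 18 and 83 in TKO tumors. DKO tumors 1 and 3 and TKO tumor 4 were above every control, and the remaining libraries overlapped. Mean levels were 2.26 CPM ± 1.72 (SD, n = 4) in controls, 4.99 ± 1.73 in DKO and 2.95 ± 2.56 in TKO tumors. The log2 fold change in DKO against control was 1.11 ± 0.69 (SE, edgeR adjusted p = 0.353), and 0.33 ± 0.37 with the Gp2 covariate. For TKO against control it was 0.35 ± 0.70 (edgeR adjusted p = 0.851), and in TKO against DKO -0.75 ± 0.68 (edgeR adjusted p = 0.757).

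Cd24a, a small glycosylated surface protein of epithelial and blood progenitors, had more counts than Krt19 or Epcam in the 4 low libraries. Its counts were 195, 26, 129 and 58 in controls, 219, 179, 323 and 205 in DKO tumors and 132, 55, 66 and 166 in TKO tumors. All 4 TKO tumors lay within the range of the controls, and 2 of 4 DKO tumors were above it. Mean levels were 7.66 CPM ± 5.13 (SD, n = 4) in controls, 15.5 ± 3.06 in DKO and 7.33 ± 3.78 in TKO tumors. The log2 fold change in DKO against control was 1.01 ± 0.45 (SE, unadjusted p = 0.0426, edgeR adjusted p = 0.191) and in TKO against DKO -1.08 ± 0.45 (unadjusted p = 0.0311, edgeR adjusted p = 0.542). It was the member with the smallest error among the 3, and neither value passed the threshold. For TKO against control the log2 fold change was -0.08 ± 0.45 (edgeR adjusted p = 0.958). With the Gp2 covariate the DKO value was 0.51 ± 0.24 (edgeR adjusted p = 0.274) and the value in TKO against DKO was -0.43 ± 0.25 (edgeR adjusted p = 1.00).

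Over the 5 tested members that passed the filter on low counts (Krt19, Epcam, Cd24a, Sox9 and Spp1), 0 of 5 were called in DKO against control, where 2.42% of all tested genes were called. The count was also 0 of 5 in TKO against control, where 0.0864% of all genes were called (0.0504% higher and 0.036% lower), and in TKO against DKO, where 0% were called. DESeq2 called 0 of the 5 in each comparison, beside 1518, 507 and 56 of all genes. At an unadjusted p under 0.05 edgeR gave 1, 0 and 1 of the 5, and the one gene was Cd24a, beside 24%, 16.3% and 9% of all tested genes at that limit. The 5 fold changes in DKO against control were all above 0, with a median of 1.01 beside 0.02 over all tested genes. Of all tested genes 51.6% were above 0. The median was -0.08 in TKO against control and -0.75 in TKO against DKO, beside 0.02 and 0.01 over all genes. Within the 8 libraries with over 100 Krt20 counts, which are 2 controls, 4 DKO and 2 TKO tumors, the DKO fold changes of Krt19, Epcam and Cd24a were 0.41, 0.21 and 0.41 on the log2 scale. With the Gp2 covariate the same genes had log2 fold changes of 0.39, -0.18 and 0.08 in TKO against control and 0.06, -0.22 and -0.43 in TKO against DKO. Over the 8 libraries these values were 0.40, -0.0031 and -0.20 in TKO against control and -0.011, -0.21 and -0.61 in TKO against DKO. The median of the 5 members was 0.33 in DKO against control, 0.08 in TKO against control and -0.38 in TKO against DKO with the Gp2 covariate, and 0.41, -0.0031 and -0.34 over the 8 libraries.

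**Figure D2:**
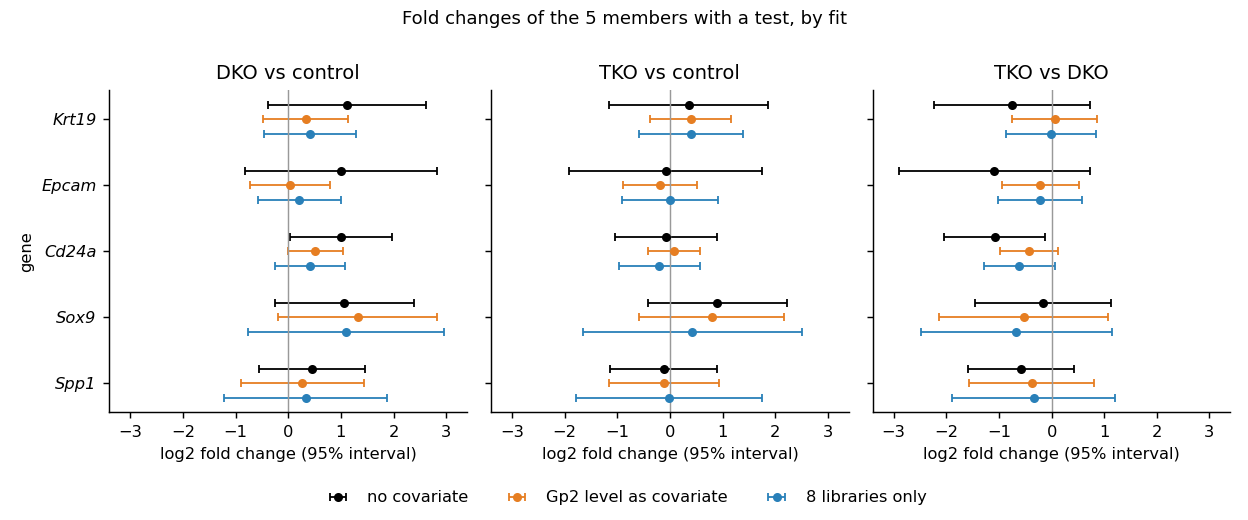
Log2 fold changes of the 5 tested members with their 95% intervals in the 3 comparisons, from the fit with no covariate (black), with the Gp2 level as a covariate (orange) and over the 8 libraries with over 100 Krt20 counts (blue). The values of Krt19, Epcam and Cd24a in DKO against control moved from 1.11, 1.00 and 1.01 to 0.33, 0.03 and 0.51 with the covariate, and 0 of 5 genes passed the threshold in any of these fits.

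For Prom1, Slc34a2 and Tspan15, a stretch of genomic sequence before an annotated start of each gene (250 bases where printed whole) is shown from RefSeq on GRCm38.p6, the build of that table, because these are the 3 members chosen by their tumor counts. Capitals mark matches to the letters TGACTCA or TGAGTCA (AP-1), TGGGAA (RBPJ, the Notch effector), GGAATG (TEAD) or ACAATG (SOX9) on either strand. The 4 motifs were present in 4.46%, 21.6%, 12.6% and 10.7% of 32851 promoter windows of 250 bases. Of Prom1, 30 bases are shown from chr5:44101807-44101836 on the minus strand, from 100 to 71 bases before the more upstream of its 2 listed starts. The Slc34a2 window is chr5:53049103-53049352 on the plus strand and the Tspan15 window is chr10:62231219-62231468 on the minus strand.
Prom1: gtcccgtggtccTGACTCAggcacccttag
Slc34a2: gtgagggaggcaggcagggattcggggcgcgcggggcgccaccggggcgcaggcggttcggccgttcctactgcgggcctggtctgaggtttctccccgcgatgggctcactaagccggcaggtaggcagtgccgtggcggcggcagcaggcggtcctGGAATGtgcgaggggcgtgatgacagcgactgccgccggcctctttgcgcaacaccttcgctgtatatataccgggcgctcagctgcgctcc
Tspan15: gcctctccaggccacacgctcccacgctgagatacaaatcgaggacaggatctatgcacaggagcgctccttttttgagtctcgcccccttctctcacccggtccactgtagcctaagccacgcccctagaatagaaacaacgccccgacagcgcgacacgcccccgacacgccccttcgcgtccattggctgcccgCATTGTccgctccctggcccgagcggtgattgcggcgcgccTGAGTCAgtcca

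The AP-1 letters stood 88 bases before the Prom1 start and 12 bases before the Tspan15 start. The same Prom1 window held the RBPJ letters 116 bases before the start, outside the stretch shown. The window at the other Prom1 start held none of the motifs searched, and nor did the windows of Epcam, Krt7 and Spp1. The Slc34a2 window held the TEAD letters 92 bases, and the Tspan15 window the SOX9 letters 53 bases, before the start. E2F letters (TTTCCCGC, TTTCGCGC, TTTGCCGC or TTTGGCGC on either strand), present in 1.86% of all windows, were not in the windows of the 6 members that had one, which says only that these letters are absent from 250 bases. Windows of Krt19, Sox9 and Cd24a were not used here. In mm9, the build to which the reads were mapped, Prom1 lies on chromosome 5 from 44384864 to 44493271, Slc34a2 on chromosome 5 from 53429321 to 53462903 and Tspan15 on chromosome 10 from 61648144 to 61693974. On that build the Slc34a2 window ran from 53440342 to 53440591 and the more upstream Prom1 window from 44492976 to 44493225. Both windows thus lay inside the annotated spans of their genes. Prom1 overlaps Gm16401 and Slc34a2 overlaps Gm17182 on the opposite strand. The strand setting of the counting is not given in the sources used here, so reads of these pairs may not be separable.

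Prom1 was higher in all 4 DKO tumors than in any other library. Its level was 3.56, 1.97, 2.78 and 2.12 CPM in controls 1 to 4, 63.5, 28.5, 10.5 and 50.4 in the DKO tumors, and 8.98, 7.75, 1.84 and 3.88 in the TKO tumors. The lowest DKO tumor was still above the highest TKO tumor, and TKO 3 was below every control. Means were 2.61 CPM ± 0.726 (SD, n = 4) in controls, 38.2 ± 23.4 in DKO and 5.61 ± 3.32 in TKO tumors. On the log2 scale DKO tumors were 3.85 above controls, which is the contrast that chose the gene, TKO tumors were 1.10 above controls and TKO fell by 2.76 against DKO. Of all tested genes, 8.87% had all 4 DKO values above all 4 controls and 2.12% had all 4 TKO values below all 4 DKO values. Leaving out 1 library at a time gave 3.48 to 4.17 for DKO against control and -3.08 to -2.39 for TKO against DKO. With the Gp2 covariate these values were 3.65 and -2.51. Within the controls, the 2 libraries with Gp2 counts had more Prom1 (48 and 41 counts) than the 2 without (16 and 29).

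Slc34a2 had the most uniform level among controls of the 9 members. It was at 1.63, 1.48, 1.49 and 1.39 CPM in controls, 14.7, 8.31, 6.57 and 8.08 in DKO tumors and 4.94, 6.82, 2.61 and 4.63 in TKO tumors. All 8 tumors were above all 4 controls, and TKO 2 lay above DKO 3, so the tumor groups overlapped. Means were 1.50 CPM ± 0.0997 (SD, n = 4) in controls, 9.42 ± 3.62 in DKO and 4.75 ± 1.73 in TKO tumors. Log2 differences were 2.64 for DKO against control, which chose the gene, 1.66 for TKO against control and -0.98 for TKO against DKO. Of all tested genes, 8.87% had all 4 DKO tumors and 4.38% had all 4 TKO tumors above all 4 controls. Slc34a1 and Slc34a3, the kidney members of the same cotransporter family, had 0 to 2 and 0 to 3 counts in any library.

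Tspan15 was higher in every tumor than in any control, with the largest values in TKO. Its level was 5.56, 3.07, 4.27 and 7.54 CPM in controls, 16.6, 19.5, 14.1 and 14.4 in DKO tumors and 30.9, 46.1, 9.20 and 28.7 in TKO tumors. There were 3 of 4 TKO tumors above every DKO tumor, and TKO 3 was below all 4. Means were 5.11 CPM ± 1.91 (SD, n = 4) in controls, 16.2 ± 2.49 in DKO and 28.7 ± 15.1 in TKO tumors. The log2 differences were 2.47 for TKO against control, which chose the gene, 1.64 for DKO against control and 0.83 for TKO against DKO, in which 2.75% of all tested genes had all 4 TKO values above all 4 DKO values. With the Gp2 covariate the difference that chose each gene was 2.60 for Slc34a2 and 2.47 for Tspan15. TKO 3 was the lowest TKO library for Prom1, Slc34a2 and Tspan15 alike.

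**Figure D3:**
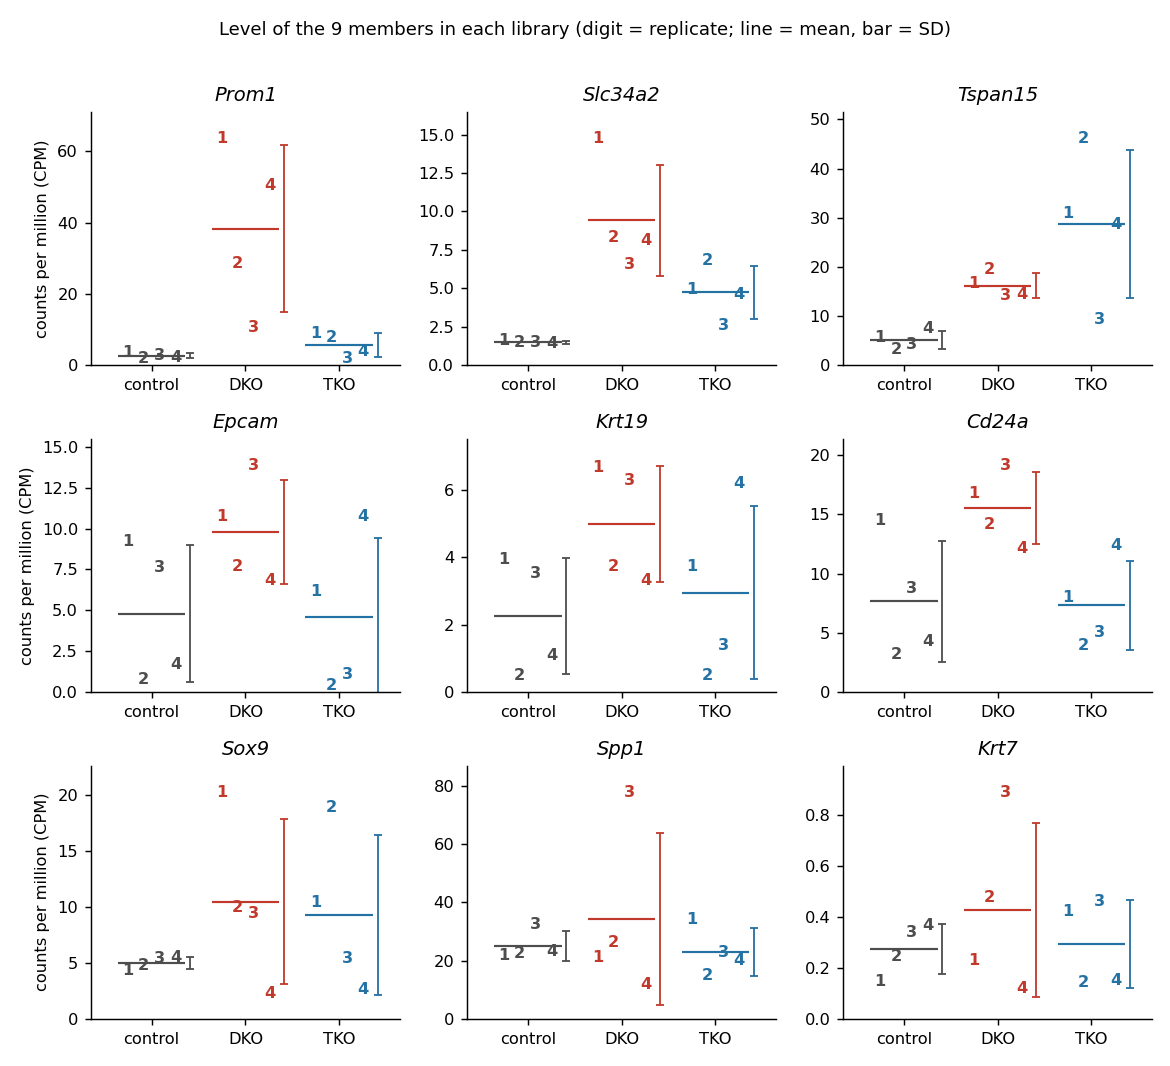
Level in CPM of each of the 9 members in control, DKO and TKO libraries, with a digit for the replicate, a line at the group mean and a bar for the SD (cut at 0). Prom1 was highest in the 4 DKO tumors (10.5 to 63.5 CPM), Slc34a2 and Tspan15 were above every control in all 8 tumors, and the other 6 genes overlapped between groups.

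Sox9, the transcription factor needed for duct formation, was uniform among controls and spread widely among tumors. It was at 4.30, 4.79, 5.42 and 5.49 CPM in controls, 20.2, 9.97, 9.46 and 2.30 in DKO tumors and 10.4, 18.9, 5.37 and 2.61 in TKO tumors. Of the 8 tumors 5 were above every control, while DKO 4 and TKO 4 were below every control. The log2 fold change was 1.06 ± 0.61 (SE, edgeR adjusted p = 0.308) in DKO against control, 0.90 ± 0.61 (edgeR adjusted p = 0.491) in TKO against control and -0.16 ± 0.59 (edgeR adjusted p = 0.951) in TKO against DKO. The last value changed sign without DKO 1, TKO 3 or TKO 4. The highest tumor was 8.80 times the lowest among DKO and 7.24 times among TKO tumors, against 1.28 times among controls.

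The tumors with the least Sox9, DKO 4 and TKO 4, had the most Lgr5 of their groups, a target and coreceptor of Wnt signalling. Lgr5 had 385 counts in DKO 4 and 591 in TKO 4, against 31 to 51 in controls, 13, 262 and 37 in DKO 1 to 3 and 27 to 32 in TKO 1 to 3. DKO 2, with 262 Lgr5 counts, was an exception with Sox9 at 9.97 CPM. Axin2, another Wnt target, had 700 counts in DKO 4, 579 in DKO 2, 1006 in TKO 4 and 39 to 130 in the remaining libraries. Lgr5 (log2 fold change 1.71 ± 1.16 in DKO and 1.82 ± 1.16 in TKO against control, edgeR adjusted p = 0.396 and 0.466) and Axin2 passed no test between groups. Inhba, the activin A subunit, and Tspan33, a tetraspanin related to Tspan15, had the patterns most like that of Sox9 over the 12 libraries. Their mean absolute differences from it were 0.25 and 0.29 on the centred log2 CPM scale, where the median over all tested genes was 0.84.

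**Figure D4:**
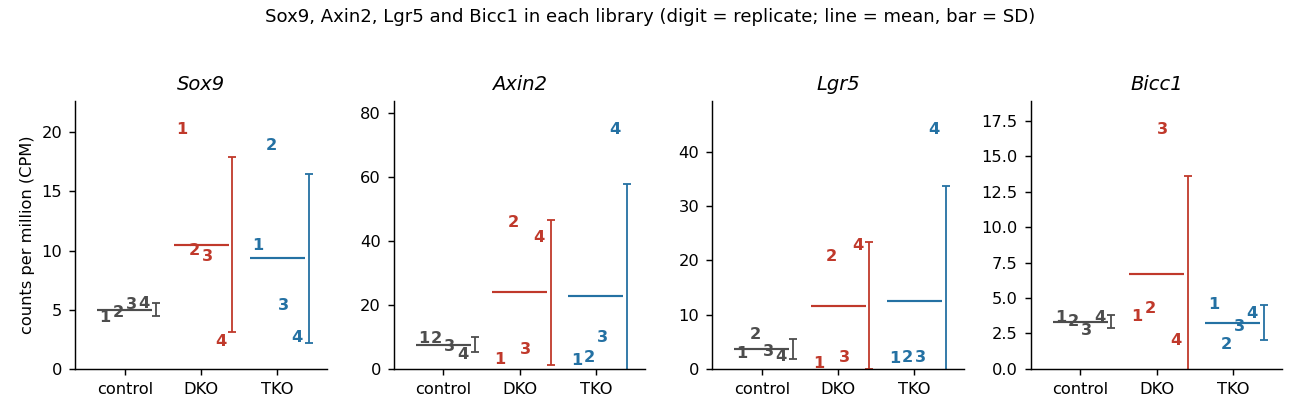
Level in CPM of Sox9, Axin2, Lgr5 and Bicc1 in each library, with a digit for the replicate, a line at the group mean and a bar for the SD (cut at 0). DKO 4 and TKO 4 had the lowest Sox9 (2.30 and 2.61 CPM) and the highest Lgr5 of their groups (22.7 and 44.1 CPM), and DKO 3 had the highest Bicc1 (16.9 CPM).

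Spp1, which encodes osteopontin, a secreted phosphoprotein of bile duct cells and macrophages, stood out in 1 DKO tumor. It was at 21.7, 22.4, 32.5 and 23.3 CPM in controls, 21.2, 26.4, 77.7 and 11.9 in DKO tumors and 34.1, 14.9, 22.9 and 19.9 in TKO tumors. DKO 3 had 1314 counts and all other libraries 182 to 566, so the groups overlapped. The log2 fold change was 0.46 ± 0.46 (SE, edgeR adjusted p = 0.581) in DKO against control, and without DKO 3 it turned to -0.34. It was -0.12 ± 0.47 (edgeR adjusted p = 0.930) in TKO against control and -0.58 ± 0.46 (edgeR adjusted p = 0.727) in TKO against DKO.

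Krt7, the other keratin of mature duct cells, was close to the limit of detection. It had 2, 2, 5 and 5 counts in controls, 3, 6, 15 and 2 in DKO tumors and 7, 2, 6 and 2 in TKO tumors, and did not pass the filter on low counts. The highest value was in DKO 3, and the groups overlapped. With no filter its log2 fold change was 0.63 ± 0.66 (SE, edgeR adjusted p = 0.652) in DKO against control and 0.10 ± 0.68 in TKO against control. Some other duct markers were also near 0, with 0 to 12 counts of the chloride channel gene Cftr and 0 or 1 of the secretin receptor gene Sctr. The cholangiocyte marker list of 10 genes summed to 69.6 to 101 CPM in controls, 64.9 to 163 in DKO and 63.6 to 90.1 in TKO tumors, and to 80.9 and 101 CPM in the 2 controls with Gp2 counts. Of this list Spp1, Sox9, Tspan8, Epcam and Krt19 were thus detected in all 12 libraries, the last 2 with the split described above. Krt7, Cftr and Sctr were at or near 0.

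DKO 3 had the highest sum of the cholangiocyte marker list (163 CPM) and was the DKO tumor with the least Prom1. Spp1 alone gave 77.7 CPM of that sum. In DKO 1, DKO 2 and DKO 4 the sums were 140, 146 and 64.9 CPM, of which Spp1 gave 21.2, 26.4 and 11.9 CPM. Besides Krt7 and Spp1, DKO 3 had the highest counts of the keratin Krt23 (37, against 2 to 10 elsewhere), the mucin Muc1 (49, against 2 to 16) and the Ets factor Ehf (55, against 4 to 19). The same held for the tight junction gene Cldn6 (26, against 0 to 12) and the ciliary gene Dcdc2a (56, against 6 to 28). Bicc1, an RNA-binding protein of renal and biliary tubes, had 286 counts in DKO 3 and 24 to 75 elsewhere. Epcam (234 counts) and Cd24a (323 counts), which share the split with Gp2, were also highest in DKO 3. Krt19 was highest there by counts (106, against 87 in DKO 1) but not in CPM (6.27 against 6.67). Other duct genes went the other way. In CPM, Sox9 and the listed duct gene Pkhd1 were highest in DKO 1, and Tspan8 and Prom2 were lower in DKO 3 than in the other DKO tumors. Bicc1 and Plekhh2 were the genes whose pattern was most like that of Spp1, with mean absolute differences of 0.26 and 0.26. Without DKO 3, the log2 difference of Prom1 between DKO and control was 4.17. Macrophage markers (11 genes) and stellate and fibroblast markers (8 genes) summed to 466 and 514 CPM in DKO 3. In the other DKO tumors they summed to 94.5 to 214 and 141 to 213 CPM. Neutrophil and lymphocyte markers summed to 12.4 and 28.0 CPM in DKO 3, against 2.37 to 3.22 and 8.67 to 10.7 CPM in the other DKO tumors. The part of these cell types in the values of DKO 3 was not tested.

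Per kilobase of exon, Spp1 was the most abundant member in control liver, at 15.2 CPM per kb ± 3.08 (SD, n = 4). Cd24a followed at 4.23 ± 2.83, Epcam at 2.35 ± 2.07, Tspan15 at 1.41 ± 0.529, Krt19 at 1.22 ± 0.927 and Sox9 at 1.21 ± 0.136 CPM per kb. The order from Cd24a to Sox9 was not separated by the spread between livers, and Epcam was at 4.51 and 3.72 CPM per kb in the 2 controls with Gp2 counts and 0.362 and 0.825 in the 2 without. Prom1 was at 0.577 ± 0.161, Slc34a2 at 0.299 ± 0.0199 and Krt7 at 0.0390 ± 0.0140 CPM per kb. In DKO tumors Spp1 (20.8 ± 17.9), Cd24a (8.57 ± 1.69) and Prom1 (8.46 ± 5.19 CPM per kb) overlapped, whereas in TKO tumors Prom1 was at 1.24 ± 0.736 CPM per kb, below Tspan15 at 7.95 ± 4.19.

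The members did not form 1 group across the libraries. By mean absolute difference of centred log2 CPM, the closest pairs of members were Epcam with Krt19 (0.36) and Cd24a with Krt19 (0.38), the genes that share the split with Gp2. Prom1 and Slc34a2 were 0.68 apart. Over the 8 libraries with over 100 Krt20 counts these distances were 0.17, 0.31 and 0.72. These distances are descriptions over 12 libraries that share depth and the split above. The nearest genes of Krt19 were Gfpt2 and Acsbg1, those of Epcam were Umod, a kidney glycoprotein, and the potassium channel gene Kcnj15, and those of Cd24a were Serpinb6a and Anxa3. Umod had 14 to 28 counts in the 8 libraries with Gp2 and 0 or 1 in the other 4. Serpinb6a ranged from 120 to 284 counts in those 4 and from 651 to 1340 in the 8.

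Prom1 was nearest to Itih5, an inter-alpha-trypsin inhibitor heavy chain, and to Wfdc3. Itih5 had 33 to 55 counts in controls, 1127, 424, 202 and 175 in DKO tumors and 40 to 117 in TKO tumors, at a distance of 0.51 beside a median of 1.48 over all genes. Slc34a2 was nearest to the beta-tubulin gene Tubb2b (0.28) and to Gm609 (0.31). Tubb2b was at 4.88 to 6.23 CPM in controls, 15.5 to 45.2 in DKO and 13.7 to 25.7 in TKO tumors. Tspan15 was nearest to the mitotic cyclin gene Ccnb2 (0.34) and to D430020J02Rik (0.36). The list of 5 cycling genes (Mki67, Top2a, Ccnb1, Cdk1, Bub1) summed to 6.64 to 16.3 CPM in controls, 18.3 to 80.4 in DKO and 9.82 to 50.2 in TKO tumors, and its part in the level of Tspan15 was not tested.

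Among relatives and partners of the members, Prom2 had the largest differences. Prom2, the paralog of Prom1, was at 2.82, 1.23, 2.51 and 1.68 CPM in controls, 73.3, 39.1, 18.3 and 29.5 in DKO tumors and 37.3, 119, 3.14 and 2.54 in TKO tumors. All DKO tumors were above all controls, and the TKO tumors were divided into 2 high and 2 near the controls. Its log2 fold change was 4.24 ± 1.08 (SE, edgeR adjusted p = 0.0573) in DKO and 4.26 ± 1.08 (edgeR adjusted p = 0.132) in TKO against control, and 0.02 ± 0.90 (edgeR adjusted p = 0.995) in TKO against DKO. The tumor groups overlapped for Prom2, whereas for Prom1 all TKO tumors were below all DKO tumors. TKO 1 and TKO 2, the high libraries for Prom2, were also the 2 highest TKO libraries for Prom1, Slc34a2, Tspan15 and Sox9.

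Adam10, the protease bound by Tspan15, was at 36.3 to 55.2 CPM in controls, 53.4 to 68.0 in DKO and 45.9 to 56.4 in TKO tumors. Its log2 fold change of 0.45 ± 0.15 in DKO did not pass the threshold (edgeR adjusted p = 0.100). Of the other tetraspanins that bind ADAM10, Tspan5, Tspan14, Tspan17 and Tspan33 had log2 fold changes between -0.55 and 0.80 in the 2 comparisons with control. Among them 0 of 4 were called, beside 2.42% of all tested genes in DKO and 0.0864% in TKO against control. Tspan10 had at most 3 counts. The phosphate transporter genes Slc20a1 and Slc20a2, which are not of the Slc34 family, changed by 0.50 ± 0.35 and -0.16 ± 0.13 in DKO without passing the test (edgeR adjusted p = 0.413 and 0.481).

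The simple keratins Krt8 and Krt18, which hepatocytes share with duct cells, were far above Krt19. Krt8 was at 96.6 to 157 CPM in controls and 159 to 424 in DKO tumors, with a log2 fold change of 0.94 ± 0.30 (SE, edgeR adjusted p = 0.0909), and Krt18 at 89.3 to 191 and 153 to 302 CPM. Sox4, a SoxC factor that acts with Sox9 in duct development, was at 2.37 to 3.57 CPM in controls, 3.66 to 10.8 in DKO and 3.14 to 13.9 in TKO tumors (log2 fold change 1.21 ± 0.43 in DKO, edgeR adjusted p = 0.117). Sox8 had 0 counts in control 2, control 4 and TKO 2, 1 in TKO 3 and 9 to 22 elsewhere, the split seen for Gp2. Sox10 and Sox11 had at most 8 counts. Of 9 osteopontin receptor genes, 0 were called in any comparison. Of all tested genes 2.42% were called in DKO against control, 0.0864% in TKO against control and 0% in TKO against DKO. The median log2 fold changes of the 9 receptor genes were 0.34 in DKO and 0.23 in TKO against control. Siglecg, the receptor of Cd24a, had 1 to 11 counts and was not tested.

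A wider panel of 80 biliary and progenitor genes without the members was also counted, and 65 of them were tested. Its lists were chosen with earlier results of these data known. The shares of the panel are therefore a description beside those of all genes, and no independent test. In DKO against control 6 of 65 were called, all higher, beside 1.41% of all tested genes called higher. Against control and against DKO, 0 of 65 were called in TKO tumors, with 19 and 4 at an unadjusted p under 0.05, beside 16.3% and 9% of all tested genes. DESeq2 called 17, 9 and 2 of the panel in the 3 comparisons, beside 1518, 507 and 56 of all genes. The median log2 fold change of the panel was 0.72 in DKO and 0.26 in TKO against control, and -0.12 in TKO against DKO. All 4 DKO tumors were above all controls for 20 genes and below for 2, where 8.87% and 7.3% of all genes did so. For TKO tumors the counts were 6 and 3, beside 4.38% and 3.29%.

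The 6 called genes belonged to all 3 lists of the panel. Tspan8, a tetraspanin of duct and gut epithelium, was at 14.3, 2.83, 8.81 and 5.34 CPM in controls, 54.0, 70.5, 24.9 and 26.1 in DKO tumors and 8.74, 9.45, 3.14 and 12.2 in TKO tumors. It rose in DKO tumors by 2.47 ± 0.52 on the log2 scale (SE, edgeR adjusted p = 0.0426), with all 4 above the controls. Its TKO tumors were all below the DKO tumors (-2.38 ± 0.52, edgeR adjusted p = 0.281), the order also seen for Prom1. Tspan8 followed the Gp2 split within the controls, and with the Gp2 covariate its DKO value was 2.09 ± 0.48 (edgeR adjusted p = 0.110).

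Afp, the fetal serum protein of hepatoblasts, was at 2.37 to 4.61 CPM in controls, 29.7, 29.7, 5.91 and 104 in DKO tumors and 1.69 to 6.25 in TKO tumors. It rose in DKO by 3.68 ± 0.71 (SE, edgeR adjusted p = 0.0392), and DKO 3 had the smallest value, as for Prom1. Dll4, a Notch ligand of endothelium, rose by 1.56 ± 0.32 (edgeR adjusted p = 0.0425), and Tgfbr2, the type II TGF-beta receptor, by 1.73 ± 0.37 (edgeR adjusted p = 0.0448). Tnfrsf12a, the TWEAK receptor of the ductular reaction, rose by 1.98 ± 0.41 (edgeR adjusted p = 0.0425), and Itga6, the laminin receptor subunit, by 1.37 ± 0.30 (edgeR adjusted p = 0.0460). Dll4 (1.37 ± 0.32) and Tnfrsf12a (1.99 ± 0.41) were above all controls in all 4 TKO tumors without being called (edgeR adjusted p = 0.119 and 0.0918).

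**Figure D5:**
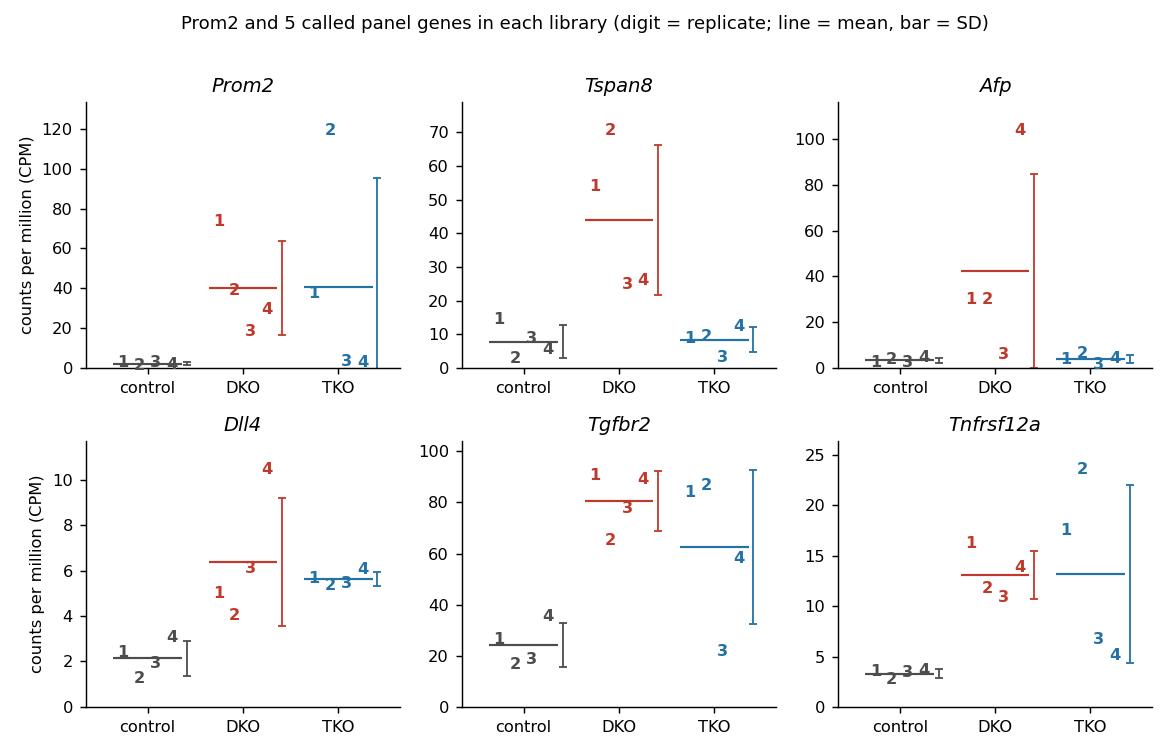
Level in CPM of Prom2, Tspan8, Afp, Dll4, Tgfbr2 and Tnfrsf12a in each library, with a digit for the replicate, a line at the group mean and a bar for the SD (cut at 0). For all 6 genes the 4 DKO tumors lay above the 4 controls, and for Tspan8 the 4 TKO tumors lay below the 4 DKO tumors.

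Calls in the panel rested on small margins. All 6 edgeR adjusted p-values lay between 0.0392 and 0.0460, and each gene was under the threshold in 11 or 12 of 23 alternative fits. The highest adjusted p-values of the 6 genes were between 0.137 and 0.210, all from the edgeR fit over the 8 libraries. Leaving out 1 library at a time gave 0 to 12 calls. There were 0 without control 2, control 3, DKO 1, DKO 2, DKO 4 or TKO 1, 1 without control 1 or control 4, 12 without TKO 3 and 10 without TKO 4. With the Gp2 covariate, and over the 8 libraries with over 100 Krt20 counts, 0 of the panel were called. The log2 fold changes of the 6 genes stayed between 1.13 and 4.12 in all of these fits.

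Genes of the panel that were not called included some with larger fold changes. In DKO against control Cdh1, E-cadherin, had a log2 fold change of 3.04 ± 0.77 (SE, edgeR adjusted p = 0.0560), with 8.88 to 22.5 CPM in controls and 90.6 to 160 CPM in DKO tumors. Hey1, a Notch target, had 2.15 ± 0.53 (edgeR adjusted p = 0.0538) and Igdcc4, a surface protein of fetal liver, 3.298 ± 0.962 (edgeR adjusted p = 0.0765). Onecut1, a factor of duct and hepatocyte differentiation, was below all controls in all 4 DKO tumors, at 5.78 to 15.6 CPM against 19.0 to 31.1 (log2 fold change -1.15 ± 0.52, edgeR adjusted p = 0.203). Aqp4, a water channel, had the lowest value among duct genes (-2.34, edgeR adjusted p = 0.160). Igf2 had the lowest value of the progenitor list (-3.20, edgeR adjusted p = 0.240) and is one of the genes that followed the split of libraries described above.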

How the data were processed

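The authors sequenced poly(A) RNA of 12 mouse liver samples on SOLiD, mapped 40-base reads to mm9 with BWA, counted reads per gene with featureCounts and deposited 1 table of raw counts. Tool versions, gene annotation, strand setting and the handling of multi-mapping reads are not given in the sources used here. Entrez identifiers were matched to symbols for 24191 of 26301 genes, which hold 99.4% of counts. Genes were filtered with filterByExpr (13882 kept), scaled by TMM and tested with edgeR 4.0.16 (R 4.3.3) over all 12 libraries, with no covariate, and p-values were adjusted over all tested genes at 0.05. Levels are CPM from TMM-scaled library sizes, and lengths for CPM per kb are the exon unions of GENCODE vM1 on mm9. Likeness used log2 CPM with a prior count of 2, centred per gene. Intervals and fold changes carry the spread between libraries, and totals of 9165812 to 16424973 counts limit what can be seen of genes with few counts. Alternatives were DESeq2 1.42.0, limma 3.58.1 voom, other scalings, filters and covariates, and leaving out each library. The edgeR script was tested on simulated data.

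The members and lists were chosen with earlier results of these data known. Named genes were the 9 members, called genes of each list or otherwise its 2 highest and 2 lowest fold changes, the 2 genes most like each member, and listed relatives. Genes outside this rule were named after their values were seen. Protein sequences and the promoter windows of Krt19, Sox9 and Cd24a were not analysed here. No 2 libraries of the same group agreed within sampling noise, and pairs across groups were not compared. Some listed genes are not reported here.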

Additional observations from a re-analysis of the deposited data

Results flagged for a closer look

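Spp1 in control 3 was set apart from the other controls, at 32.5 CPM (480 counts) against 21.7 to 23.3 CPM. The gap to its nearest neighbour was 0.8291 of the whole range on the log2 scale, at Dixon's 95% critical value for 4 samples. Over 27 such tests of 9 genes in 3 groups this was the single result beyond it, and about 1 in 20 is reached by chance.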

How the results depend on the processing

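Over 23 alternatives, 2 of them added after seeing the data (the Gp2 covariate and the 8 libraries with over 100 Krt20 counts), 0 of the 5 tested members were called in any comparison (22 alternatives for Epcam and Krt19, which did not pass the stricter filter). The count over all genes in DKO against control, 336, was 1518 with DESeq2, 1804 with voom, 59 scaled by total counts, 759 with the DKO and control libraries alone, 6 with a sex-linked covariate, 0 with the Gp2 covariate, 1 over the 8 libraries and 0 to 651 with 1 library left out. The panel count in that comparison, 6, was 17 with DESeq2, 15 with voom, 2 by total counts, 12 with the 2 groups alone, 0 with the sex-linked covariate, 0 in both added fits and 0 to 12 with 1 library left out. In TKO against control the count of 12 was 507 with DESeq2, 97 with voom, 22 with no filter, 5 with the sex-linked covariate, 23 with the Gp2 covariate, 1 over the 8 libraries and 0 to 231 with 1 left out, and the panel count of 0 was 9, 2 with voom and 0 to 4 with 1 left out. In TKO against DKO DESeq2 called 56 genes and 2 of the panel, where edgeR called 0 and 0 and left-out libraries gave 0.

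Correlations of same-numbered deviations between groups ran from -0.174 to 0.370. Differently numbered libraries were not compared, so these values do not decide whether replicate numbers pair the samples. A replicate block gave 509 genes and 10 panel genes in DKO and 1 gene in TKO against control, and turned Cd24a in TKO against control to 0.023.

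Signs turned for values that no fit called. In TKO against control, scaling by total counts gave Epcam 0.16, Spp1 0.040 and Cd24a 0.11, voom gave Krt19 -0.41 and the Gp2 covariate Cd24a 0.083. With 1 library left out in the same comparison, Epcam ran from -0.92 to 0.42, Cd24a from -0.46 to 0.42, Krt19 from -0.29 to 0.74 and Spp1 from -0.38 to 0.038. Epcam was 0.42 without control 1, 0.22 without control 3, 0.29 without TKO 2 and 0.24 without TKO 3, Cd24a 0.42, 0.13 and 0.06 without control 1, TKO 2 and TKO 3, Spp1 0.033 and 0.038 without control 3 and TKO 2, and Krt19 -0.29 without TKO 4. In TKO against DKO Sox9 ran from -0.76 to 0.38 and Spp1 from -0.86 to 0.22 with 1 library left out, and Sox9 was 0.28 with the sex-linked covariate and 0.38, 0.03 and 0.14 without DKO 1, TKO 3 and TKO 4, Krt19 0.063 with the Gp2 covariate and Spp1 0.22 without DKO 3, which in DKO against control gave -0.34. The cause was not tested. With few counts, genes such as Krt7 could not be separated between groups at this depth.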
